A study of Homo sapiens with 4 samples.

Results

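The 9 genes described here encode core parts of the epithelial tight junction: the claudins CLDN1, CLDN3, CLDN4, CLDN7 and CLDN12, the MARVEL-domain proteins OCLN (occludin) and MARVELD2 (tricellulin), the junctional adhesion molecule F11R and the scaffold TJP1 (ZO-1). They were chosen by name, and each was taken from its row on a chromosome, so that all 9 of 9 were found among the 62077 rows of the expression table. CLDN3, CLDN4, OCLN and MARVELD2 each had 1 further row on an alternative sequence, and these 4 rows were at 0 in the 4 libraries. RNA was sequenced from FaDu cells, an established line of squamous carcinoma cells from the hypopharynx, with TET1 knocked down (TET1-si) or with a scrambled control, under normoxia or after 19 h of hypoxia at 1% oxygen. The groups were normoxia scrambled (N-scr), normoxia TET1-si (N-si), hypoxia scrambled (H-scr) and hypoxia TET1-si (H-si), each with 1 library. Per the study's methods, knockdown cells were made by lentiviral infection with short hairpin RNAs, so each TET1-si library compares 1 infected population with another, and an effect of the population and one of the knockdown cannot be told apart.

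Tight junctions seal the space between epithelial cells. Claudins are membrane proteins whose extracellular loops meet between neighbouring cells and form the barrier, or in some cases an ion pore. Occludin and tricellulin are tetraspan proteins of the same strands, tricellulin being concentrated at tricellular contacts. F11R (JAM-A) is an immunoglobulin-type adhesion molecule, and TJP1 is a cytoplasmic scaffold that binds claudin tails and links the strands to actin. Loss of claudins and occludin is commonly followed as a part of the epithelial-mesenchymal transition, the process the study examined under hypoxia. TET1 is a dioxygenase that oxidises 5-methylcytosine in DNA.

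Levels are FPKM (fragments scaled to exon length and to the number mapped) as deposited, and where 4 levels follow each other they run from N-scr to N-si, then H-scr, then H-si. Recovered depths lay between 22450000 and 24500000 reads per library. Since each group is a single library, differences could not be set against a spread over cultures, and p-values are left out. In such bulk RNA, fewer cells of a type and less RNA per cell cannot be told apart. Each ratio between libraries is set beside a 95% counting interval from approximate reads, which covers counting error only and says nothing about the spread between cultures. TET1 itself was low, with normoxic levels of 0.129 (scrambled) and 0.0493 FPKM (TET1-si) and hypoxic levels of 0.331 and 0.122 FPKM, and was thus lower in both TET1-si libraries. All 9 epithelial markers checked were above 0 in every library. Their summed level was 7512 (scrambled) and 2640 FPKM (TET1-si) under normoxia, and 10228 and 4597 FPKM under hypoxia. After TET1-si 7 of the 9 were lower under normoxia and 6 under hypoxia. KRT14 was at 0.487 FPKM compared with 42.1 in normoxia, and 1.41 compared with 99.9 in hypoxia. The keratins KRT5, KRT8, KRT14 and KRT18 were at least 2-fold lower after TET1-si in both oxygen states, whereas CDH1 (E-cadherin) was 0.57 higher on the log2(FPKM + 0.1) scale under normoxia and 0.45 higher under hypoxia, and EPCAM 0.41 and 0.68 higher. Markers of other cell types were summed too: endothelial genes gave 8.93 to 48.4 FPKM, most of it CDH5, with CLDN5 at 0 throughout. VWF had 0.160, 0.457, 1.79 and 2.94 FPKM, and PECAM1 had no row that could be used. Fibroblast genes gave 5.30 to 37.2 FPKM, nearly all COL1A1, with COL1A2 and LUM at 0, and leukocyte genes gave 1.57 to 3.47 FPKM, mostly CD14, with CD3E at 0. The endothelial, fibroblast and leukocyte sums were all higher in each TET1-si library than in the scrambled library of the same oxygen state, and the part of this in the results below was not tested.

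The genes lie in 7 places in the genome (hg19). CLDN3 (ENSG00000165215, chromosome 7, 73183328 to 73184600, minus strand) is an intronless gene that ends 29.3 kb before the locus of CLDN4 (ENSG00000189143, chromosome 7, 73213872 to 73247014, plus strand). CLDN12 (ENSG00000157224, chromosome 7, 90013035 to 90142716, plus strand) lies farther along the same chromosome. MARVELD2 (ENSG00000152939, chromosome 5, 68710939 to 68740157, plus strand) and OCLN (ENSG00000197822, chromosome 5, 68788119 to 68853931, plus strand) are 48.0 kb apart. CLDN1 (ENSG00000163347) lies on chromosome 3 from 190023490 to 190040264, CLDN7 (ENSG00000181885) on chromosome 17 from 7163222 to 7167302, F11R (ENSG00000158769) on chromosome 1 from 160965001 to 161008784 and TJP1 (ENSG00000104067) on chromosome 15 from 29991571 to 30261068, all on the minus strand. Some levels are uncertain because reads may be shared. OCLN has a partial copy, OCLNP1, on chromosome 5 and overlaps GUSBP3 on the other strand. The F11R locus overlaps TSTD1 (mean 59.3 FPKM) on the same strand, and that of CLDN12 overlaps GTPBP10 (mean 23.3 FPKM) and CDK14.

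Start sites from RefSeq were placed on hg19 by exact match of 300-base promoters (250 bases before the start site and 50 after). Entries existed for 8 of the 9 genes, all but F11R, and numbered 13. The CpG dinucleotide, the substrate context of TET1, was frequent in the entries of CLDN1 (31 CpG), CLDN3 (24), OCLN (26 and 28) and MARVELD2 (25), and rarer in that of CLDN4 (5), against a median of 14 over 35116 promoters. The 4 entries of TJP1 held 3, 21, 36 and 34, and that of CLDN12 held 15. CLDN7 had 30 CpG at the start site at 7165797 and 10 at that at 7166532. The letters ACGTG, or with a first base of G the letters GCGTG, the core of the hypoxia response element to which HIF proteins bind, stood on either strand in 9 of the 13 entries and in 48.4% of all promoters. These entries came from CLDN1, CLDN3, CLDN7, OCLN, MARVELD2 and TJP1. The E-box CAGGTG, which SNAI and ZEB repressors recognise, reads CACCTG on the opposite strand. It stood in 5 of the 13 entries, from CLDN3, CLDN7, OCLN and TJP1, and in 20.6% of all promoters. The TJP1 entry with an E-box, that with 34 CpG, has its start site at 30261252, outside the TJP1 locus given above. The AP-1 site TGACTCA stood in the entry of CLDN4 and in 4.95% of promoters, and the GRHL site AACCGGTT in 0 of the 13 entries and in 0.134% of promoters. These motifs share no position with one another in the members' promoters. A match of letters is a description and not evidence of binding.

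The windows below, 30 bases each, show such matches at the genes that differed most after TET1-si, with the motif in capitals and the strand of the gene given 5′ to 3′. They are hypoxia response cores of CLDN1 and CLDN3, the AP-1 letters of CLDN4, and E-boxes of CLDN3, CLDN7 and OCLN. The CLDN7 window holds a further CACCTG in lower case. Only part of the matches is shown, and CLDN7 and OCLN, shown for E-boxes, also hold hypoxia response cores.
CLDN1, chr3:190040361-190040390, minus strand: ccgggtggtcccCACGCcgccagccgcgcg
CLDN3, chr7:73184685-73184714, minus strand: ggaggcaggggcCACGTcactgtccttagg
CLDN4, chr7:73245154-73245183, plus strand: agactggatagTGACTCAgggacccggggc
CLDN3, chr7:73184551-73184580, minus strand: cccacaaagccacaggCAGGTGcaggcgca
CLDN7, chr17:7165800-7165829, minus strand: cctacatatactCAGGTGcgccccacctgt
OCLN, chr5:68788329-68788358, plus strand: ccatccgagtttCAGGTGaattggtcaccg

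The levels of the 9 genes spanned a wide range, and their order differed between the libraries. In N-scr the highest was CLDN7, followed by F11R, TJP1, CLDN4, CLDN1, CLDN12, MARVELD2, OCLN and CLDN3. In H-si the order was CLDN1, CLDN7, F11R, CLDN4, TJP1, CLDN12, OCLN, MARVELD2 and CLDN3. CLDN3 was the lowest in all 4 libraries. With 1 library per group, neighbours in these orders cannot be separated by a spread over samples.

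**Figure D1:**
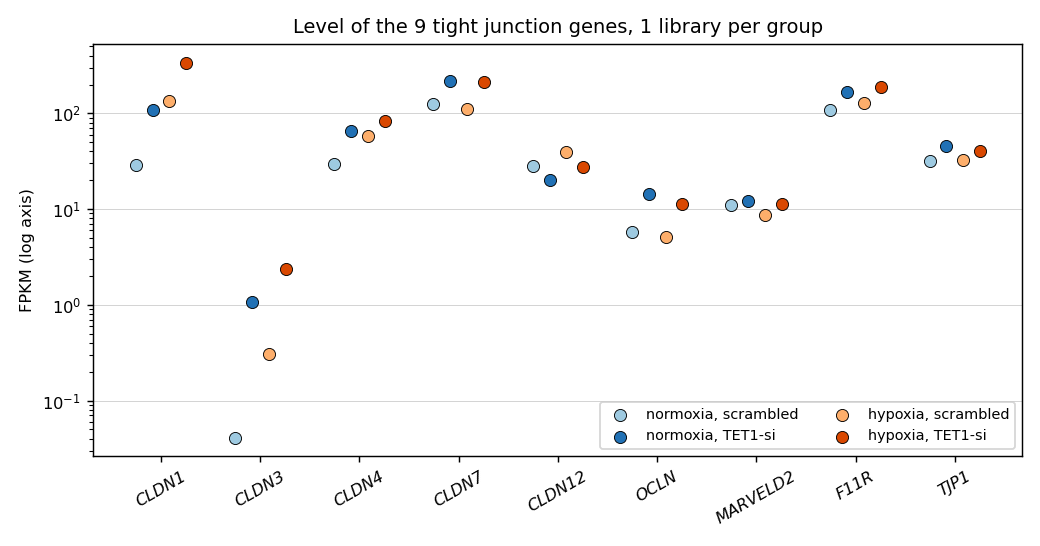
FPKM (log axis) of each tight junction gene, 1 point per library, coloured by oxygen state and knockdown state. CLDN1 and CLDN3 span the widest range, and CLDN12 is the gene whose TET1-si points lie below its scrambled points.

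CLDN7 was the main claudin transcript in normoxia and CLDN1 in hypoxia. The 5 claudins summed to 212 FPKM in the scrambled and 412 in the TET1-si library of normoxia, against 342 and 665 in those of hypoxia. CLDN7 made up 59.2% (scrambled) and 52.8% (TET1-si) of this sum under normoxia, and 32.7% and 32.1% under hypoxia. CLDN1 made up 13.5% and 26.3% under normoxia, and 38.9% and 50.8% under hypoxia. Shares of 1 sum depend on each other: the level of CLDN7 itself was 0.890 and 0.983 of the normoxic level in hypoxia, for scrambled and TET1-si cells, while that of CLDN1 was 4.66-fold and 3.12-fold higher. The share of CLDN4 stayed between 12.6% and 16.8%, and that of CLDN12 was 13.2% in N-scr and 4.18% in H-si.

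**Figure D2:**
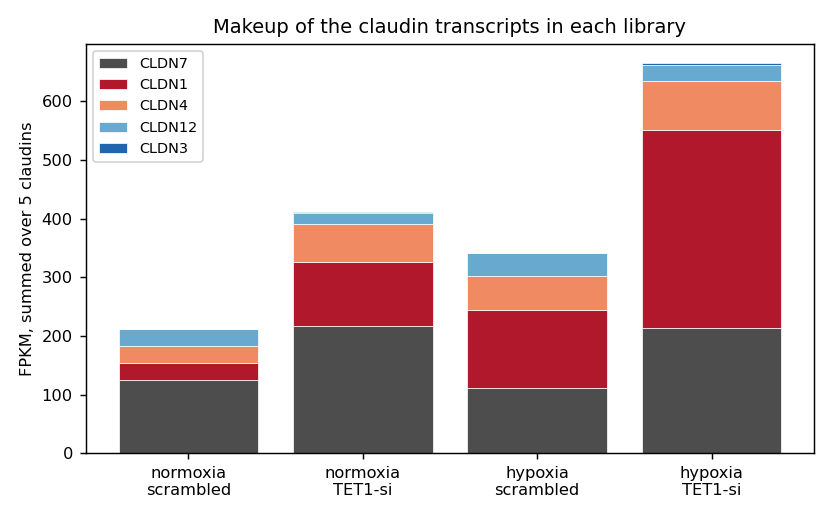
Stacked FPKM of the 5 claudins in each library. The sum is 212 FPKM in N-scr and 665 in H-si, and the CLDN1 segment takes 13.5% of the bar in N-scr and 50.8% in H-si, while CLDN3 is too low to be seen.

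CLDN1, a barrier-forming claudin of stratified epithelia, had normoxic levels of 28.5 (scrambled) and 108 FPKM (TET1-si) and hypoxic levels of 133 and 338 FPKM. Both hypoxia and TET1-si went with a higher level. In hypoxia it was 4.66-fold higher in scrambled cells (counting interval 4.45 to 4.89) and 3.12-fold higher in TET1-si cells (3.04 to 3.19). After TET1-si it was 3.80-fold higher under normoxia (3.62 to 3.98) and 2.54-fold higher under hypoxia (2.48 to 2.60). H-si stood 11.8-fold above N-scr, below the 17.7-fold given by the product of the single ratios for hypoxia and TET1-si. The hypoxia response was accordingly smaller in TET1-si cells, by -0.58 on the log2 scale (-0.66 to -0.51).

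CLDN3, a claudin of simple epithelia, was close to the limit of detection in scrambled cells. It had 0.0411 FPKM in the scrambled and 1.08 in the TET1-si library of normoxia, against 0.307 and 2.35 in those of hypoxia. Because the gene has a single exon, these levels could be read back as 1, 28, 8 and 56 reads. Both TET1-si libraries were higher than both scrambled libraries. After TET1-si the level was 7.64-fold higher under hypoxia (3.62 to 18.6) and 26.2-fold higher under normoxia (4.33 to 1070), the latter against a single read. In hypoxia it was 2.18-fold higher in TET1-si cells (1.36 to 3.57), and in scrambled cells the ratio of 7.47 (1.00 to 332) was barely resolved. Its mean of 0.942 FPKM was just under the minimum of 1 used for counting genes below.

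CLDN4, a claudin of simple and glandular epithelia that restricts ion passage, had normoxic levels of 29.9 (scrambled) and 65.1 FPKM (TET1-si) and hypoxic levels of 57.6 and 83.5 FPKM. It was lowest in N-scr, and each of hypoxia and TET1-si went with a higher level. After TET1-si the level was 2.17-fold higher under normoxia (2.02 to 2.34) and 1.45-fold higher under hypoxia (1.37 to 1.54). The hypoxic level was 1.93-fold higher for scrambled cells (1.78 to 2.08) and 1.28-fold higher for TET1-si cells (1.21 to 1.36). As for CLDN1, the hypoxia response was smaller in TET1-si cells, by -0.58 on the log2 scale (-0.72 to -0.45).

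CLDN7, a claudin that binds the adhesion molecule EPCAM, had 125 FPKM in the scrambled and 217 in the TET1-si library of normoxia, against 112 and 214 in those of hypoxia. Its libraries paired by knockdown state and not by oxygen state. The level was 1.73-fold higher after TET1-si under normoxia (1.66 to 1.80) and 1.91-fold higher under hypoxia (1.83 to 1.99). The hypoxia comparison of CLDN7 had log2 ratios of -0.17 for scrambled cells (-0.23 to -0.10) and -0.02 for TET1-si cells (-0.07 to 0.02), and rescaling to TPM turned the latter to 0.11.

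CLDN12, a claudin without the usual PDZ-binding tail, ran against the others. It had normoxic levels of 27.9 (scrambled) and 19.9 FPKM (TET1-si) and hypoxic levels of 39.2 and 27.8 FPKM. The level after TET1-si was 0.714 of that in scrambled cells under normoxia (0.669 to 0.762) and 0.707 under hypoxia (0.669 to 0.748). In hypoxia it was 1.41-fold and 1.39-fold higher in scrambled and TET1-si cells, and H-si and N-scr differed by less than counting error, with a ratio of 0.994 (0.936 to 1.06). No difference between the hypoxia responses was detectable at this depth (log2 interval -0.14 to 0.11).

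OCLN had 5.76 FPKM in the scrambled and 14.3 in the TET1-si library of normoxia, against 5.06 and 11.4 in those of hypoxia. Both TET1-si libraries were more than 2-fold above the scrambled library of the same oxygen state, at 2.49-fold under normoxia (2.29 to 2.70) and 2.26-fold under hypoxia (2.07 to 2.47). In hypoxia OCLN was slightly lower, with a ratio of 0.877 for scrambled (0.792 to 0.970) and 0.797 for TET1-si cells (0.746 to 0.852). MARVELD2, its neighbour on chromosome 5, had 11.1 FPKM in the scrambled and 12.1 in the TET1-si library of normoxia, against 8.76 and 11.4 in those of hypoxia. Its lowest library was H-scr and the others lay close together. MARVELD2 was 1.30-fold higher after TET1-si under hypoxia (1.19 to 1.42), and under normoxia the ratio of 1.08 was not resolved (0.999 to 1.18). Median-of-ratios and upper-quartile scaling turned its normoxic log2 difference of 0.12 to -0.05 and -0.06. The MARVEL-domain genes thus differed in their TET1-si ratios, and their counting intervals did not overlap in either oxygen state.

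F11R had normoxic levels of 108 (scrambled) and 167 FPKM (TET1-si) and hypoxic levels of 128 and 186 FPKM. It was 1.56-fold higher after TET1-si under normoxia (1.52 to 1.59) and 1.46-fold higher under hypoxia (1.43 to 1.49), with smaller ratios for hypoxia of 1.19 in scrambled and 1.11 in TET1-si cells. TJP1 had normoxic levels of 31.6 (scrambled) and 45.4 FPKM (TET1-si) and hypoxic levels of 32.3 and 40.6 FPKM. It was 1.44-fold higher after TET1-si under normoxia (1.39 to 1.49) and 1.26-fold higher under hypoxia (1.21 to 1.30). For TJP1 the hypoxia response in scrambled cells was 0.03 on the log2 scale (-0.02 to 0.09), and median-of-ratios and upper-quartile scaling turned it to -0.08 and -0.03. In TET1-si cells it was -0.16 (-0.21 to -0.11).

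**Figure D3:**
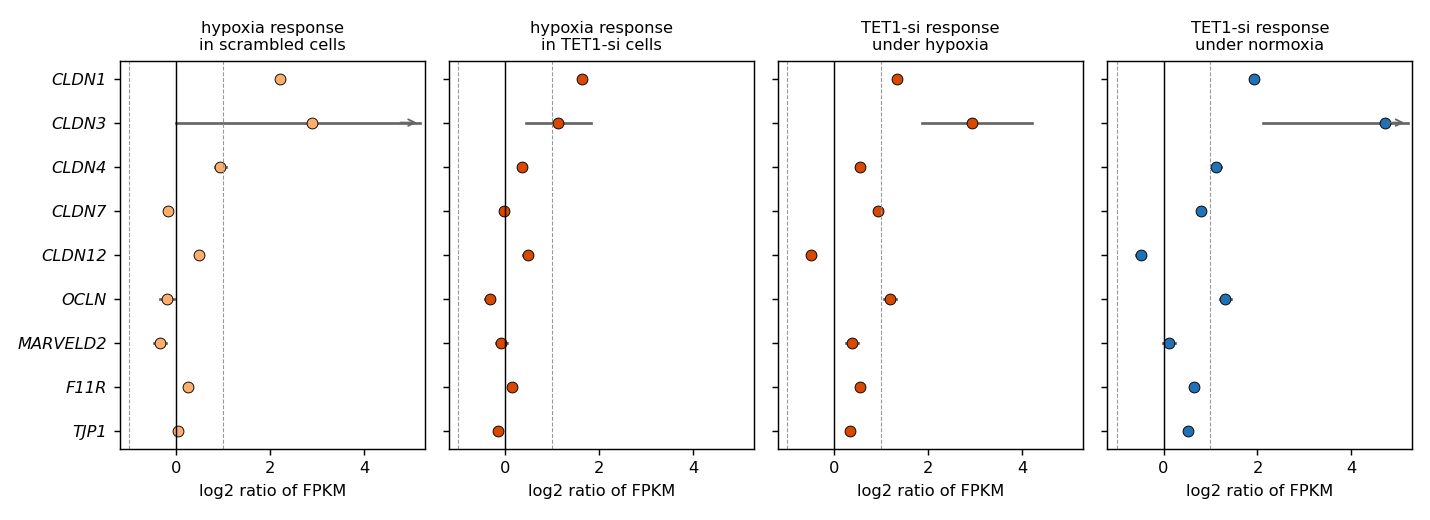
Log2 ratio of FPKM for the 9 genes in each pairwise comparison, with lines for the 95% counting intervals (arrows where an interval of CLDN3 runs past the axis) and dashed lines at 2-fold. In both TET1-si panels 8 of the 9 genes lie to the right of 0 and CLDN12 lies to the left.

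The first group comparison asked how the genes differed after TET1-si. Differences here are those of log2(FPKM + 0.1). Under hypoxia 8 of the 9 were higher and CLDN12 was lower, with a median of 0.55, against a median of 0.10 over the 15057 genes whose mean reached 1 FPKM. Under normoxia 8 of the 9 were again higher, with a median of 0.79 against 0.15. Among all those genes 56.5% were higher after TET1-si under hypoxia and 60.3% under normoxia. Less the all-gene median, the medians of the 9 were 0.44 and 0.64. Above the all-gene median lay 8 of the 9 under hypoxia and 7 under normoxia. Under normoxia MARVELD2, at 0.12, was below that median, and its counting interval included 0. Over the 8 members that themselves reached a mean of 1 FPKM, the medians were 0.54 and 0.71. Median-of-ratios scaling moved the median of all genes under normoxia from 0.15 to -0.0042, and TPM moved that of the hypoxia response in TET1-si cells from 0.03 to 0.16. Counts of differences of at least 2-fold were made over the 8 genes that passed the minimum level. Under hypoxia CLDN1 and OCLN were at least 2-fold higher, 2 of 8, against 12.0% of all genes, and 0 of 8 were 2-fold lower, against 8.35%. Under normoxia CLDN1, CLDN4 and OCLN were, 3 of 8, against 12.1%, and 0 were lower, against 5.56%. The call of CLDN4 was lost under median-of-ratios and upper-quartile scaling, with differences of 0.95 and 0.94, which left 2 of 8, and under hypoxia TPM brought CLDN7 to 1.00 and the count to 3 of 8. CLDN3, under the minimum, stood 2.59 higher under hypoxia and 3.06 higher under normoxia on the same scale, but at its few reads these sizes depend on the pseudocount. Over the alternatives they ranged from 1.36 to 2.93 and from 1.00 to 4.71, and with a pseudocount of 1 the normoxia value was the smaller. The study picked TET1-dependent genes by 3 inequalities: the H-scr level had to be more than 2-fold that of H-si and higher than that of N-scr, and N-si had to be no higher than N-scr. By these, 0 of the 9 genes qualified, and OCLN met the inequalities turned round. The share of all genes that met either set was not counted, so these counts have no background beside them.

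The next comparison asked how they differed in hypoxia. The genes had no common direction. In scrambled cells 6 of the 9 were higher and 3 lower, where 52.9% of all genes were higher. Their median was 0.25 against 0.05 for all genes. For TET1-si cells the numbers were 5 higher and 4 lower, where 51.5% of all genes were higher, with a median of 0.15 against 0.03. Over the 8 members that reached a mean of 1 FPKM, as all those genes did, the medians were 0.14 and 0.06. Of the 8 counted genes CLDN1 alone was at least 2-fold higher in either knockdown state, against 12.9% of all genes for scrambled cells and 12.5% for TET1-si cells, and 0 were 2-fold lower, against 4.53% and 8.66%. CLDN1, CLDN3, CLDN4, CLDN12 and F11R were higher in hypoxia in each knockdown state, and CLDN7, OCLN and MARVELD2 were lower. For TET1-si cells the intervals of CLDN7 and MARVELD2 included 0, and TPM turned the difference of MARVELD2 from -0.08 to 0.06. The difference of hypoxia responses (TET1-si less scrambled) was above 0 for 2 of the 9 genes and below 0 for 7, where 44.6% of all genes were above 0. Among the 7, the counting intervals of CLDN3, CLDN12 and OCLN included 0. The median difference of the 9 was -0.14 against -0.06 for all genes, and -0.12 over the 8 counted genes. Of these 8 genes 0 reached 2-fold in either direction, against 4.87% higher and 7.86% lower. With a pseudocount of 1 the difference of CLDN3 turned to 0.36, and that of CLDN12 turned to above 0 under each scaling. Each library enters a hypoxia comparison and a TET1-si comparison, so these share libraries, whereas both TET1-si comparisons share none and neither do both hypoxia comparisons.

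A wider list of 61 tight junction genes gave the setting of the 9. Of these, 38 passed the minimum level. After TET1-si under hypoxia 31 of the 38 were higher, with a median of 0.56, against 56.5% of all genes and a median of 0.10. Under normoxia 30 were higher, with a median of 0.35, against 60.3% and 0.15. At least 2-fold higher were 9 of 38 under hypoxia, against 12.0% of all genes. Under normoxia 6 of 38 were, against 12.1%, a share near that of all genes. CLDN9, ILDR1 and AMOT, called in both states, and CLDN23, called under normoxia, stayed under 1 FPKM in both scrambled libraries. They passed the minimum only through the TET1-si libraries in which they were high, so these calls depend on the filter. At least 2-fold lower were 1 and 2, against 8.35% and 5.56%. In hypoxia 5 of 38 were at least 2-fold higher without TET1-si, again near the 12.9% of all genes, and 9 with it, against 12.5%, and 0 were lower in either, against 4.53% and 8.66%. Some of these hypoxia calls depend on the filter as well. ILDR1 was under 1 FPKM in both normoxic libraries, and CLDN16 had 0.610 (scrambled) and 1.25 FPKM (TET1-si) there. CLDN9 and AMOT, also among the hypoxia calls, reached the minimum through the TET1-si libraries. The wider list was chosen with earlier results of these data known, and its counts are a description.

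Of the 18 other claudins, 4 passed the minimum. CLDN9 had 0.166 FPKM in the scrambled and 2.68 in the TET1-si library of normoxia, against 0.863 and 6.09 in those of hypoxia, on approximately 5, 90, 29 and 187 reads, and so took the same order as CLDN3. CLDN16, which lies next to CLDN1 on chromosome 3 and serves magnesium transport in the kidney, had 0.610, 1.25, 2.87 and 6.05 FPKM, with hypoxia responses of 2.06 and 2.19 in scrambled and TET1-si cells. CLDN15, a pore-forming claudin, was lower after TET1-si: 2.06 FPKM compared with 4.71 in normoxia, and 2.44 compared with 5.52 in hypoxia. CLDN23 had 0.449, 1.11, 0.969 and 1.52 FPKM. CLDN5, CLDN14, CLDN17 and CLDN25 were listed at 0 in the 4 libraries.

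Other membrane proteins of the junction had no common direction. MARVELD3, the remaining tight junction MARVEL protein, had normoxic levels of 17.7 (scrambled) and 19.6 FPKM (TET1-si) and hypoxic levels of 12.5 and 24.7 FPKM, and was thus lower in hypoxia in scrambled cells and higher in TET1-si cells. LSR, the angulin that recruits tricellulin to tricellular contacts, was lower after TET1-si: 66.3 FPKM compared with 98.2 in normoxia, and 58.8 compared with 94.4 in hypoxia. ILDR1, a further angulin, had 0.310 FPKM in the scrambled and 0.903 in the TET1-si library of normoxia, against 0.854 and 2.20 in those of hypoxia. CXADR, an adhesion molecule that also serves as a virus receptor, had 3.51, 0.912, 2.37 and 2.99 FPKM, with a difference of hypoxia responses of 2.16.

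Among the scaffolds, TJP3 had 2.07 FPKM in the scrambled and 2.40 in the TET1-si library of normoxia, against 7.15 and 20.3 in those of hypoxia. CGN (cingulin), which ties the plaque to myosin, had 8.92, 7.96, 15.4 and 26.0 FPKM. TJP3 and CGN were therefore higher in hypoxia in both knockdown states, and higher after TET1-si under hypoxia, while under normoxia the TET1-si difference was 0.20 for TJP3 and -0.16 for CGN. AMOT and AMOTL1, angiomotins that bind the polarity complex, were at least 2-fold higher after TET1-si in both oxygen states, with log2 differences of 3.51 and 1.97 under hypoxia and 1.87 and 1.07 under normoxia. For the polarity gene PARD6A these were 1.93 and 1.85. Under hypoxia alone PARD6B and MPDZ also passed 2-fold, at 1.05 and 1.19, and reached 0.68 and 0.37 under normoxia.

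Of the claudin partners, EPCAM, which stabilises CLDN7, had normoxic levels of 155 (scrambled) and 206 FPKM (TET1-si) and hypoxic levels of 102 and 163 FPKM. It was higher after TET1-si, as CLDN7 was, and lower in hypoxia. ST14, the protease matriptase that cleaves EPCAM, had 36.1, 60.1, 46.5 and 64.8 FPKM.

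**Figure D4:**
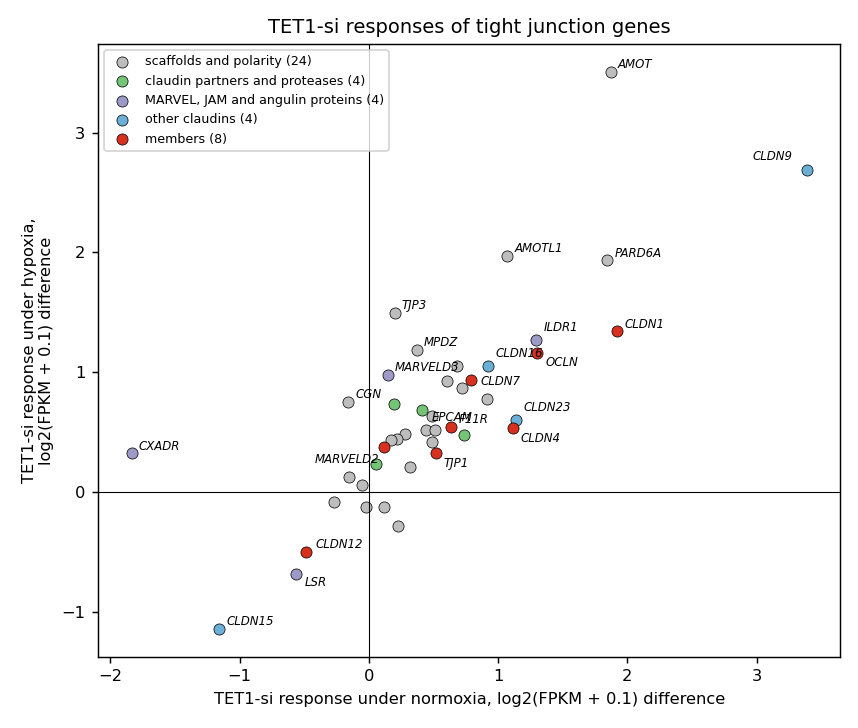
TET1-si response under normoxia (horizontal) against that under hypoxia (vertical), as differences of log2(FPKM + 0.1), for tight junction genes that reached a mean of 1 FPKM. Points above and to the right of 0 were higher after TET1-si in both oxygen states. CLDN12, LSR and CLDN15 are among those below and to the left, and CXADR lies at -1.83 under normoxia and 0.32 under hypoxia.

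Transcription factors known to act on these genes were listed as well. GRHL2, an activator of CLDN4 and other epithelial genes, had 63.5 FPKM in the scrambled and 147 in the TET1-si library of normoxia, against 70.0 and 160 in those of hypoxia, which is 2.31-fold higher after TET1-si under normoxia and 2.28-fold under hypoxia. Of the 9 that passed the minimum, 5 were higher after TET1-si in the hypoxic cells (median 0.06) and 6 in the normoxic cells (median 0.26), so the list had no common direction. ELF3 had 290, 397, 383 and 569 FPKM. KLF5 had 39.4, 19.4, 30.5 and 28.7 FPKM and was at least 2-fold lower after TET1-si under normoxia, and KLF4 had 10.0, 12.0, 24.3 and 21.6 FPKM. TWIST1, an inducer of the epithelial-mesenchymal transition, was lower after TET1-si: 1.60 FPKM compared with 5.83 in normoxia, and 1.46 compared with 3.63 in hypoxia. SNAI2, a repressor of claudins and occludin, had 26.8, 17.6, 29.3 and 26.8 FPKM, and SNAI1, ZEB1 and ZEB2 stayed under 1 FPKM in all 4 libraries. The part of these levels in those of the tight junction genes was not tested.

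Beside the 9 genes, 9 adherens junction genes had median TET1-si responses of 0.26 under hypoxia and 0.47 under normoxia, with 6 of 9 higher in each. The 10 desmosome genes that passed the minimum had 0.26 and -0.23, with 8 and 4 of 10 higher. Among all genes 56.5% were higher under hypoxia and 60.3% under normoxia, with medians of 0.10 and 0.15, and the adherens junction counts were near these shares. No test of the difference between the junction types was possible with 1 library per group.

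To show the TET1-si differences in their genomic setting, each gene was placed beside the nearest 10 protein-coding genes on either side that reached a mean of 1 FPKM. F11R was close to its surroundings, at 0.64 under normoxia where its 20 neighbours had a median of 0.59, and at 0.55 against 0.49 under hypoxia. CLDN12 was at -0.48 and -0.50 against medians of -0.35 and -0.27. CLDN7 was at 0.79 and 0.93 against 0.57 and 0.37, and 8 and 3 of its 20 neighbours lay above it. CLDN3 and OCLN stood above each of their 20 neighbours in both oxygen states, where the neighbours of CLDN3 had medians of -0.07 and -0.33 and those of OCLN -0.03 and 0.22. CLDN4, in the same stretch as CLDN3, was above 19 of 20 neighbours under normoxia and above 18 under hypoxia. CLDN1 was above all 20 under normoxia and below 3 of them under hypoxia, and its neighbours had medians of 0.28 and 0.29. TJP1, for which 17 neighbours were available, was at 0.52 and 0.33 against -0.11 and -0.02. MARVELD2 was at 0.12 and 0.38 against -0.03 and 0.23. CLDN3 was itself under the minimum set for neighbours, and its normoxia value rests on 1 read in N-scr. The neighbours of CLDN3 and CLDN4 were nearly the same genes, with CLDN4 among those of CLDN3. OCLN and MARVELD2 were each among the neighbours of the other, so these comparisons are not separate. These neighbour values are a description and were not tested.

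**Figure D5:**
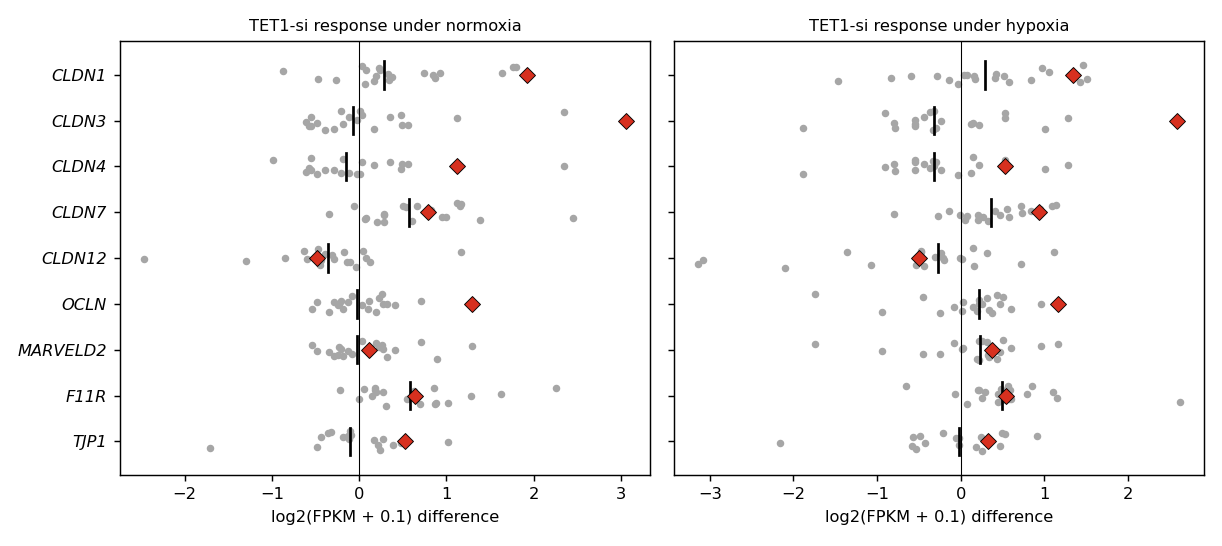
TET1-si difference of each tight junction gene (red diamond) and of its nearest expressed protein-coding neighbours (grey points, with a black bar at their median), as differences of log2(FPKM + 0.1) under normoxia (left) and hypoxia (right). Diamonds of CLDN3, itself under the minimum level, and of OCLN lie to the right of all their neighbours. Those of F11R, CLDN12 and MARVELD2 lie near the bars.

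The genes whose 4-library pattern was most like those of the 2 widest-ranging members were sought among 9465 protein-coding genes that reached a mean of 5 FPKM, by root-mean-square distance of centred log2(FPKM + 0.1) over the 4 libraries. Nearest to CLDN1 were ABCA2 (distance 0.091), LIPE (0.13) and UBA7 (0.14). ABCA2 had normoxic levels of 5.37 (scrambled) and 18.3 FPKM (TET1-si) and hypoxic levels of 21.9 and 55.0 FPKM. Nearest to CLDN3 were CCDC64B (0.15), GSDMC (0.20) and UTRN (0.25), a ranking that leans on 1 read of CLDN3 in N-scr.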

How the data were processed

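FPKM were deposited by the authors as 1 gene-level table with 4 columns. TruSeq mRNA libraries were read at 100 bp (single end per the labels, paired end per the methods) on an Illumina instrument, and the authors used TopHat and Cufflinks with Ensembl annotation on hg19. Versions, the Ensembl release and the use of strand are not given in the sources used here. Start positions count from 0 in the table, and 1 was added.

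Depth was searched over 4461 genes with 1 exon, whose low FPKM values are whole numbers of reads. Per library 677 to 773 low values were scored, and 96.7% to 97.8% of them came out whole within 0.05. Depth was chosen to make this share highest, so the share is not a separate check. Reads per gene were approximated as FPKM times depth times canonical transcript length (GENCODE v44lift37) less 213 bp, so those of genes with several transcripts are rough. Ratio intervals are 95% Clopper-Pearson intervals, and those of the difference of hypoxia responses are exact conditional or, with 100 or more reads in each library, log-normal.

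Changes are differences of log2(FPKM + 0.1), which understate those of low genes. Counts used a mean FPKM of at least 1 and a 2-fold change. IDs on more than 1 row (111) were left out. No count test was run, and the scripts were tested on simulated data. Promoters came from RefSeq (GRCh38.p14) and were matched to GRCh37. From the wider list, genes could be named, largest first, that had a mean FPKM of at least 1 and differed at least 2-fold in any pairwise comparison, and also TJP3, CGN, MARVELD3, LSR, EPCAM and ST14 whatever their values. Regulators and marker genes named beyond this rule were picked after their values were seen. Patterns were compared for the 2 members with the widest range. Other pseudocounts, scalings, minimum levels and fold thresholds were tried. Another 2 genes of the wider list enter its counts but are not reported here. The members and lists were chosen with earlier results of these data known. Python 3.11.15, pandas 2.3.3 and scipy 1.17.1 were used.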

Additional observations from a re-analysis of the deposited data

Results flagged for a closer look

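With 1 library per group, no group could be searched for a deviating sample. Some responses had opposite directions in the 2 states compared, and none of these differences was tested across cultures. Values are on the log2(FPKM + 0.1) scale. The hypoxia response of TJP1 was 0.03 in scrambled and -0.16 in TET1-si cells, a difference of -0.19. That of MARVELD3 was -0.50 and 0.33, a difference of 0.83, that of CXADR -0.55 and 1.61, a difference of 2.16, and that of AMOT -0.48 and 1.16, a difference of 1.64. The TET1-si response of CXADR was 0.32 under hypoxia and -1.83 under normoxia, which is the same difference of 2.16. That of CGN was 0.75 and -0.16, a difference of 0.91. The counting interval of the scrambled response of TJP1 included 0, and those of the other responses named excluded it.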

How the results depend on the processing

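No paired analysis was possible because each group has 1 library, and no library could be left out of a group. Of 225 member values computed under other pseudocounts and 3 scalings, 10 changed sign, all of them with a counting interval that included 0. The median hypoxia response of the 8 counted members in TET1-si cells turned from 0.06 to -0.028 under median-of-ratios scaling. In scrambled cells the count of members at least 2-fold higher in hypoxia was 2 in place of 1 with TPM, without a filter and at 1.5-fold, and in TET1-si cells it was 2 without a filter. After TET1-si under normoxia 5 members in place of 3 were 1.5-fold higher, and 2 were 2-fold higher under median-of-ratios and upper-quartile scaling, where CLDN4 was lost. Counts of the wider list moved as follows. With a pseudocount of 1, 3 and 5 genes were higher in hypoxia in scrambled and TET1-si cells, and 6 and 4 were higher (in place of 9 and 6) and 0 and 1 lower after TET1-si under hypoxia and normoxia. Median-of-ratios and upper-quartile scaling left 7 and 4 higher after TET1-si. Without a filter, the hypoxia response of scrambled cells had 9 higher and 1 lower, 1 was lower in TET1-si cells, and 5 and 4 were lower after TET1-si under hypoxia and normoxia. At a mean FPKM of at least 5, 2 and 4 were higher in hypoxia, and 4 and 1 were higher and 0 and 0 lower after TET1-si under hypoxia and normoxia. At 1.5-fold, that response had 9 higher and 1 lower, with 19 higher and 2 lower after TET1-si under hypoxia, and 12 higher under normoxia. Filters and thresholds change counts by construction, and the cause of the other moves was not tested. Shares of all genes were counted at the main settings only, so the counts under other settings have no background beside them. Depth limited CLDN3 most, with 1 read in N-scr.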
